A study of Mus musculus with 41 samples.

Results

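Plasminogen activators and serpins were followed in mouse bone across a young group and 2 old groups, 1 given vehicle (old + vehicle) and 1 given AP20187 (old + AP). The 7 genes were taken from the gene table by symbol, and each symbol matched 1 row of the 43346 genes. They are 2 activators, Plat and Plau, the receptor Plaur, and 4 serpins, Serpine2, Serping1, Serpinf1 and Serpinh1. All 7 passed the filter on low counts, which left 19292 genes for testing, and no other gene of the table overlaps any of them.

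The RNA came from tibial shafts of 41 female mice, from which the marrow had been spun out. All mice carried the p16-INK-ATTAC transgene on a C57BL/6 background. In this line the p16Ink4a promoter (gene Cdkn2a) drives an inducible caspase, so that the dimerizer AP20187 (AP) kills cells in which that promoter is active. The controls carried the transgene too. There were 12 young mice (6 months by the study's methods, 6 to 12 months by the labels, labelled as vehicle), 13 old + vehicle mice and 16 old + AP mice. The old mice were treated from 20 months of age for 4 months, with vehicle or with AP at 10 mg per kg, given on a twice-weekly schedule. The transgene's own transcript was not analysed here, and p-values weigh a difference or correlation against the spread between these mice.

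Total counts per mouse were 37028959 to 75942717. Cdkn2a averaged 0.596 ± 0.307 CPM (SD, n = 12; counts scaled to the TMM-adjusted effective size of each library) in young, 2.78 ± 2.02 (n = 13) in old + vehicle and 1.75 ± 1.70 (n = 16) in old + AP mice. It was higher in old + vehicle than in young mice (log2 fold change 2.22, edgeR adjusted p = 0.000332), while the change under AP (-0.67, adjusted p = 0.265) did not pass. Without old + AP mouse 24, the highest of its group, that change was -1.01 and also did not pass. Markers of osteoblasts, osteocytes and osteoclasts were detected, and so were those of marrow cells, muscle and cartilage. None of the markers used was at 0 in all mice of a group. Old + vehicle mouse 16 stood apart for several of the genes described here, and values without it are given beside those results.

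Plasmin is the main protease that dissolves fibrin, and it also cleaves matrix proteins and activates growth factors and other proteases. It is made from plasminogen by tissue-type plasminogen activator (Plat) and by urokinase (Plau), which works on the cell surface when bound to its receptor (Plaur). Serpins are a protein family in which many members trap a protease in an irreversible complex. Serpine2 (protease nexin-1) blocks both activators and thrombin. Serping1 is C1 inhibitor, which holds back the first complement proteases and the contact system. Serpinf1 (pigment epithelium-derived factor, PEDF) and Serpinh1 (HSP47) have the serpin fold but are not known as protease inhibitors. PEDF is a secreted protein, and its loss in people causes a brittle bone disease. HSP47 is a chaperone of the endoplasmic reticulum that binds procollagen, and its loss also causes brittle bones.

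The genes lie on 6 chromosomes, given here as in the deposited table (GRCm38). Plat is at chr8:22757744-22782847 and Plau at chr14:20836662-20843388, both on the plus strand. Plaur is at chr7:24462500-24475873 on the plus strand, and Serpine2 at chr1:79794197-79861180 on the minus strand. Serping1 is at chr2:84765387-84775444, Serpinf1 at chr11:75409769-75422701 and Serpinh1 at chr7:99345375-99353230, all on the minus strand.

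Serpinf1 and Serpinh1 were the pair of members whose levels moved most closely together, so their promoters are shown. RefSeq start sites (GRCm38.p6) were matched for 4 of the 7 members. Each window runs from 250 bases before the start site to 50 bases after it, 5′ to 3′ on the gene's strand, which is the minus strand for both. Capitals mark matches to the CCAAT box, the RUNX motif or the GC box.
Serpinf1, chr11:75422574-75422873: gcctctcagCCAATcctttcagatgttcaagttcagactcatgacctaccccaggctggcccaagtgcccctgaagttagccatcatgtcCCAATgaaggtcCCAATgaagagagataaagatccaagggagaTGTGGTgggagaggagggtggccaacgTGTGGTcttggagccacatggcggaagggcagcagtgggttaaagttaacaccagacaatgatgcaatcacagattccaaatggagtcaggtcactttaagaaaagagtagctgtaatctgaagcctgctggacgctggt
Serpinh1, chr7:99353190-99353489: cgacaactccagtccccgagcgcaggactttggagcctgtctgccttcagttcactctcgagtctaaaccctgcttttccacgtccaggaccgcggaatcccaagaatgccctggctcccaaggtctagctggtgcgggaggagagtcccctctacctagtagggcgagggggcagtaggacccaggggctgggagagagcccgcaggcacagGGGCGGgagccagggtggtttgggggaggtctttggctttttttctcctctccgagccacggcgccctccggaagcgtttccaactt

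Both strands were searched for 6 motifs. The Serpinf1 window held 3 CCAAT boxes (CCAAT), beginning at -241, -160 and -148 from the start site, and 2 RUNX motifs (TGTGGT) at -117 and -90. The Serpinh1 window held 1 GC box (GGGCGG) at -37. Neither window held a TATA box (TATAAA), an AP-1 motif (TGANTCA) or a heat shock element (GAANNTTC). Among 32851 promoter windows of the same length, 37.4% held the CCAAT box, 16.8% the RUNX motif and 35.7% the GC box. The shares were 13.6% for the TATA box, 7.81% for the AP-1 motif and 7.86% for the heat shock element. The promoters of Serpinf1 and Serpinh1 shared none of the 6 motifs. Their GC contents were 50.7% and 62.3%, against a median of 52.7% over all windows.

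Per kilobase of the length deposited for each gene, the members spanned a wide range in young bone. That length was 8287 bases for Serpine2 and 1396 to 2531 for the other members, so the place of Serpine2 depends on it. Serpinh1 was highest at 328 ± 81.6 CPM per kilobase, followed by Serpinf1 at 196 ± 38.4, Serping1 at 140 ± 14.6 and Serpine2 at 82.1 ± 10.8 (SD, n = 12). The receptor Plaur stood at 24.9 ± 7.19, and the activators Plau and Plat were lowest at 10.4 ± 1.87 and 6.44 ± 1.83 CPM per kilobase. Each neighbour in this order was higher than the next in all 12 young mice, except that Serpinf1 exceeded Serping1 in 11. In old mice Serpinf1 and Serping1 could not be ordered. Serpinf1 was the higher of the pair per length in 8 of 13 old + vehicle and 10 of 16 old + AP mice, and the mean log2 ratio was 0.23 ± 0.44 and -0.046 ± 0.80 (SD).

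In old + AP mice against young mice, Plat, Serpinf1 and Serpinh1 were lower, with fitted folds of 0.619, 0.574 and 0.570. These 3 of 7 members were called, all downward, which required both an edgeR adjusted p under 0.05 and a change of more than 0.5 on the log2 scale. Over all genes tested, 8.58% were called in this comparison and 4.85% were called lower. No member was called between old + vehicle and young mice (9.06% of all genes) or between old + AP and old + vehicle mice (0.0726% of all genes). At an unadjusted p under 0.05 there were 3 members in the first of these and 0 in the second, against 31.8% and 23.9% of all genes, and DESeq2 called 0 members in both. The median log2 fold change of the members was -0.29 in old + vehicle and -0.43 in old + AP mice against young, and -0.20 under AP. The medians over all genes were 0.0066, 0.017 and -0.0037. The comparisons share their control mice and are given side by side. In whole bone, fewer cells of a type and less RNA per cell cannot be told apart.

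**Figure D1:**
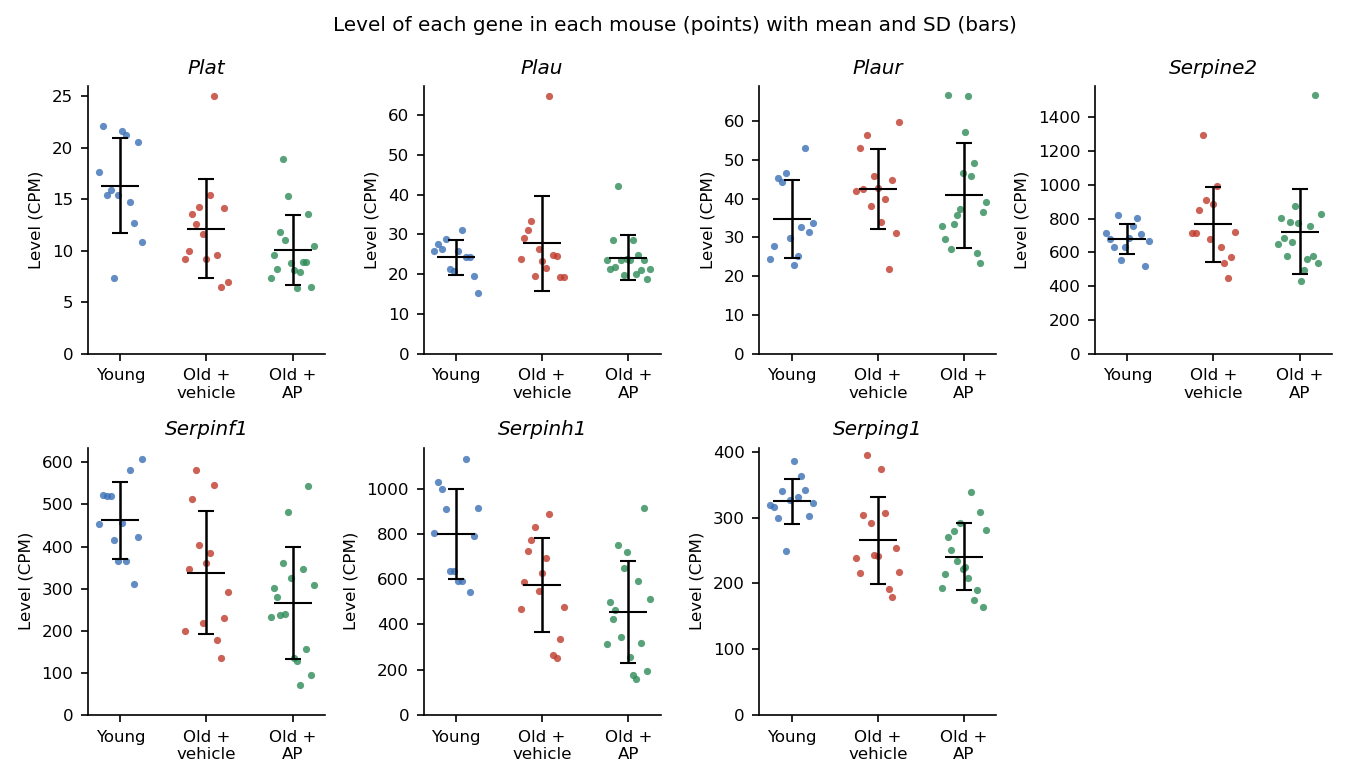
Level of each of the 7 genes in CPM (vertical axes, from 0) in each of the 12 young, 13 old + vehicle and 16 old + AP mice (points), with the mean and SD (black bars). For Serpinf1 and Serpinh1, 11 of the 16 old + AP mice lie below the lowest young mouse, while for Plau, Plaur and Serpine2 the groups overlap over most of their range.

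The tissue-type activator Plat fell in old + AP mice. In young mice it ranged from 7.33 to 22.2 CPM with a median of 15.7, in old + vehicle mice from 6.47 to 25.1 with a median of 11.6, and in old + AP mice from 6.33 to 18.9 with a median of 8.90. The groups overlapped, but 15 of 16 old + AP mice lay below the young median and 3 below the lowest young mouse. Against young mice the log2 fold change was -0.69 ± 0.18 (SE, adjusted p = 0.00544) in old + AP and -0.42 ± 0.19 (adjusted p = 0.103) in old + vehicle mice. Between the old groups it was -0.27 ± 0.17 (adjusted p = 0.338), and -0.13 without old + vehicle mouse 16 (adjusted p = 0.657). The highest old + vehicle value, 25.1 CPM, was that of mouse 16, and the next was 15.4. Without mouse 16, the difference between old + vehicle and young mice was -0.56 and was called (adjusted p = 0.0220).

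Urokinase, Plau, did not pass in any comparison. It ranged from 15.4 to 31.03 CPM (median 25.1) in young, from 19.3 to 64.9 (median 24.7) in old + vehicle and from 18.8 to 42.3 (median 23.5) in old + AP mice. The medians lay within 2 CPM of each other, and the top of the range in old + vehicle mice was again mouse 16, with the next mouse at 33.4 CPM. The log2 fold change against young mice was 0.20 ± 0.15 (adjusted p = 0.374) in old + vehicle mice, and 0.026 without mouse 16. In old + AP mice it was -0.0065 ± 0.14 (adjusted p = 0.980), and the direction of so small a value turned when single mice were left out. Between the old groups the change was -0.20 ± 0.14 (adjusted p = 0.357), and -0.033 without mouse 16.

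The urokinase receptor Plaur had higher means in both old groups, without passing the test. It ranged from 22.9 to 53.2 CPM (median 32.1) in young, from 21.9 to 59.9 (median 42.4) in old + vehicle and from 23.3 to 66.8 (median 36.96) in old + AP mice. The ranges overlapped almost fully, although 11 of 13 old + vehicle and 12 of 16 old + AP mice exceeded the median of the young. Against young mice the log2 fold changes were 0.29 ± 0.16 (adjusted p = 0.227) and 0.23 ± 0.16 (adjusted p = 0.318), and -0.057 ± 0.15 (adjusted p = 0.837) between the old groups. Without old + AP mouse 5, the highest of its group, the second of these was 0.15 and the third -0.14, and the third was -0.0072 without old + vehicle mouse 23. In old + vehicle against young mice Plaur was at 0.46 (adjusted p = 0.00451) with the skeletal muscle marker score of each mouse in the model, still under the size threshold, and at 0.12 (adjusted p = 0.384) with the neutrophil score. The corresponding values in old + AP against young mice were 0.17 (adjusted p = 0.254) and -0.082 (adjusted p = 0.619), and between the old groups -0.28 (adjusted p = 0.194) and -0.20 (adjusted p = 0.201).

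Serpine2, which inhibits thrombin and the activators, was the member with the most counts after Serpinh1 in young mice and did not pass in any comparison. Its range was 519.6 to 819.6 CPM (median 681) in young, 446 to 1295 (median 713) in old + vehicle and 429 to 1531 (median 674) in old + AP mice. The medians were close, while the ranges of the old groups extended beyond those of the young on both sides. The coefficient of variation was 13.2% in young, 29.2% in old + vehicle and 34.9% in old + AP mice. The log2 fold change was 0.17 ± 0.15 (adjusted p = 0.464) for old + vehicle and 0.083 ± 0.14 (adjusted p = 0.728) for old + AP against young mice, and -0.087 ± 0.14 (adjusted p = 0.718) between the old groups. The highest value, 1531 CPM, was that of old + AP mouse 27, and without it the change of old + AP against young mice was -0.030 and that between the old groups -0.20. Without old + vehicle mouse 7, the highest of its group, old + vehicle mice differed from young by 0.084, and the old groups by -0.0013.

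Serping1, C1 inhibitor, was lower in old + AP than in young mice by a smaller amount. It ranged from 249.9 to 386 CPM (median 325) in young, from 179.7 to 395 (median 244) in old + vehicle and from 164 to 339 (median 229.9) in old + AP mice. In the old + AP group 9 of 16 mice lay below the lowest young mouse, and in the old + vehicle group 7 of 13. The log2 fold change of old + AP against young mice was -0.43 ± 0.11 with an adjusted p of 0.00474, the smallest of the 7 members, but its size was under the threshold of 0.5. By adjusted p alone, 17.8% of all genes differed in this comparison, and 4 of the 7 members did. Old + vehicle mice differed from young by -0.29 ± 0.11 (adjusted p = 0.0668) and old + AP from old + vehicle mice by -0.14 ± 0.11 (adjusted p = 0.407), the latter being -0.083 without old + vehicle mouse 7.

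Serpinf1, which encodes PEDF, fell in old + AP mice. It ranged from 312 to 608 CPM (median 455) in young, from 135 to 583 (median 347) in old + vehicle and from 72.3 to 544 (median 259.6) in old + AP mice. Below the lowest young mouse lay 6 of 13 old + vehicle and 11 of 16 old + AP mice, while no old mouse exceeded the highest young mouse. The log2 fold change of old + AP against young was -0.80 ± 0.23 (adjusted p = 0.0138). For old + vehicle against young mice it was -0.45 ± 0.24 (adjusted p = 0.196), and between the old groups -0.35 ± 0.23 (adjusted p = 0.346).

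Serpinh1, the collagen chaperone HSP47, fell in old + AP mice by almost the same factor. It ranged from 544 to 1133 CPM (median 799) in young, from 251 to 887 (median 586) in old + vehicle and from 161 to 914 (median 442) in old + AP mice. Below the lowest young mouse lay 5 of 13 old + vehicle and 11 of 16 old + AP mice. The log2 fold change was -0.81 ± 0.22 (adjusted p = 0.00943) in old + AP and -0.48 ± 0.23 (adjusted p = 0.155) in old + vehicle mice against young, and -0.34 ± 0.22 (adjusted p = 0.340) between the old groups. The coefficient of variation was 24.9% in young, 36.3% in old + vehicle and 49.3% in old + AP mice. The same mice marked the ends of the old + AP range for both genes, with mouse 24 lowest and mouse 27 highest. Mouse 24 had, in contrast, the highest Serping1 level of that group.

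The calls of Plat, Serpinf1 and Serpinh1 in old + AP against young mice were present in each of 41 fits that left out 1 mouse. The log2 fold changes ran from -0.78 to -0.65 for Plat, from -0.90 to -0.73 for Serpinf1 and from -0.91 to -0.75 for Serpinh1. That a gene was called against young mice in old + AP but not in old + vehicle mice does not show that the old groups differ, and the direct comparison of the old groups called none of them.

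**Figure D2:**
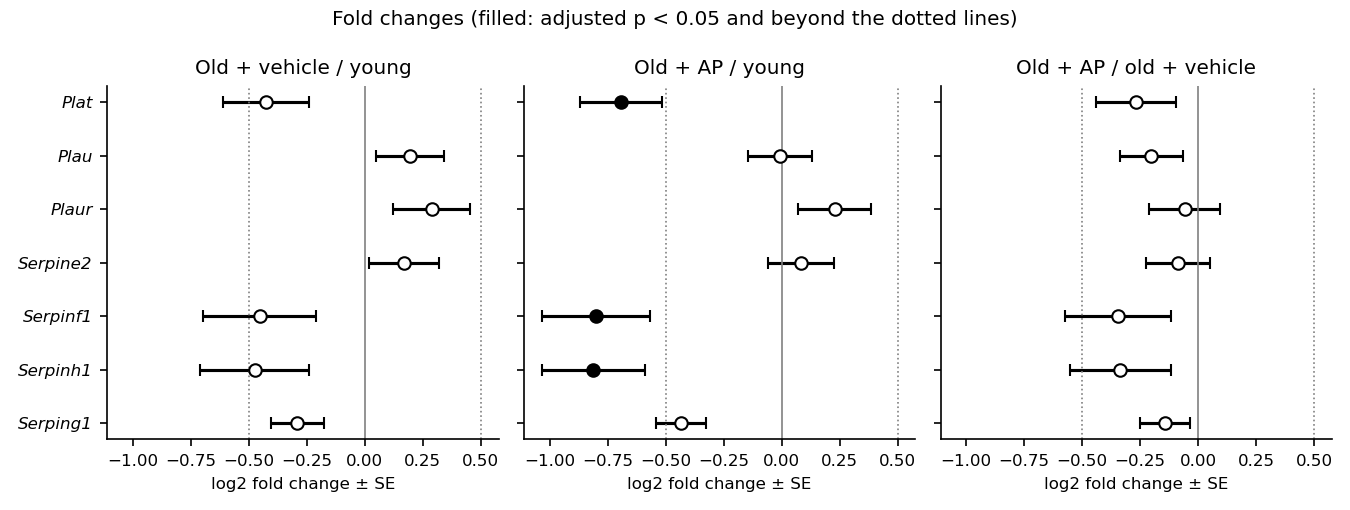
Log2 fold change with its SE (horizontal axes) of the 7 genes in the 3 comparisons, filled where a gene was called and with dotted lines at the threshold of 0.5. Plat, Serpinf1 and Serpinh1 are filled for old + AP against young only, at -0.69, -0.80 and -0.81.

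Osteoblast markers moved in the same comparisons. Of 6 markers, 3 were lower in old + vehicle and 4 in old + AP than in young mice, and 0 were called between the old groups. Over all genes, 9.06% were called in old + vehicle against young mice, 4.85% were called lower in old + AP, and 0.0726% were called between the old groups. Bglap, the gene for osteocalcin, fell in both old groups, with log2 fold changes of -1.71 and -2.01 (adjusted p = 0.000137 and 5.84e-06). Its neighbour Bglap2 was at -1.55 and -1.92, and Ibsp, bone sialoprotein, at -0.65 and -0.72. Alpl, the bone alkaline phosphatase, was at -0.63 in old + AP mice (adjusted p = 0.0462) and at -0.40 in old + vehicle mice (adjusted p = 0.249). With 1 mouse left out, Alpl was called in 20 of 41 fits in old + AP mice and Ibsp in 29 of 41 in old + vehicle mice. The summed level of the list was 2887 to 5777 CPM in young, 940 to 3645 in old + vehicle and 609 to 4620 in old + AP mice. Bglap and Bglap2 are near-identical neighbours, so that reads may be split between them.

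With the mean osteoblast marker score of each mouse added to the model, Serpinf1 and Serpinh1 were no longer called in old + AP against young mice, at 0.0077 (adjusted p = 0.979) and -0.050 (adjusted p = 0.853) on the log2 scale. Plat was at -0.39 (adjusted p = 0.228) and Serping1 at -0.27 (adjusted p = 0.187). Serpine2, in contrast, was called higher at 0.52 (adjusted p = 0.00033), and in old + vehicle mice it stood at 0.48 (adjusted p = 0.00029), below the size threshold. In old + vehicle against young mice Serpinf1 and Serpinh1 turned to 0.16 and 0.11, with adjusted p of 0.313 and 0.567. Such a fit compares mice at equal marker score, and the part of osteoblasts in the differences was not tested.

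**Figure D3:**
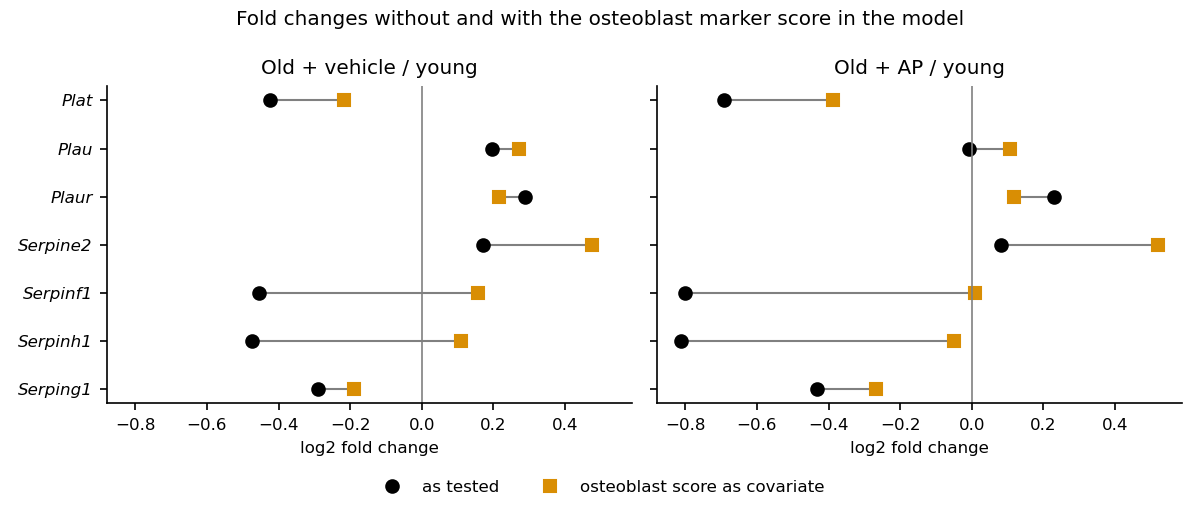
Log2 fold change of the 7 genes in old + vehicle and old + AP against young mice, as tested (circles) and with the osteoblast marker score of each mouse as a covariate (squares). Serpinf1 and Serpinh1 move from -0.80 and -0.81 to 0.0077 and -0.050 in old + AP mice, while Serpine2 moves from 0.083 to 0.52.

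Other marker lists moved too, in comparisons with young mice where 9.06% (old + vehicle) and 8.58% (old + AP) of all genes were called. In old + AP against young mice, 2 of 7 neutrophil markers were higher (Ltf at 0.56, called in 25 of 41 fits without 1 mouse, and Mpo at 0.77). The summed neutrophil level was 7697 to 18572 CPM in young, 4710 to 24723 in old + vehicle and 8499 to 32645 in old + AP mice. With the neutrophil score in the model, Plat was at -0.38 (adjusted p = 0.0370), under the size threshold, and Serpinf1 and Serpinh1 stayed called at -0.66 each. Of the 5 tendon and periosteum markers, Postn (-1.94) and Mkx (-0.67) were lower in old + AP than in young mice. Thbs4 was at 0.38 (adjusted p = 0.245) there and was higher in old + vehicle mice (0.76, adjusted p = 0.0203), a call that was lost without mouse 16. Of the 4 chondrocyte markers tested, Col2a1 (-1.45) and Col9a1 (-1.25) were lower, while Acan and Hapln1 stood at 1.26 (adjusted p = 0.159) and 0.26 (adjusted p = 0.788). The summed levels of tendon and periosteum markers were 677 to 1512 CPM in young and 230 to 817 in old + AP mice, and those of chondrocyte markers 793 to 2605 and 90.5 to 1440 CPM. The osteocyte markers were mixed, with Sost and Mepe higher (1.05 and 0.76, the latter in 33 of 41 fits without 1 mouse) and Phex lower (-0.74). Of the blood and fat lists, 1 of 6 B cell, 1 of 6 erythroid and 1 of 5 adipocyte markers were lower in old + AP mice, and in old + vehicle mice 5 of 6 B cell and 2 of 6 erythroid markers were. The B cell marker was Pax5, which was called in 19 of 41 fits without 1 mouse. Adipoq was the adipocyte marker (-0.68), while Plin1 stood at 1.14 (adjusted p = 0.0530) in old + AP mice and was higher in old + vehicle mice (1.35, adjusted p = 0.0255). No osteoclast, macrophage, endothelial or muscle marker was called in old + AP against young mice. The muscle actin gene Acta1 was higher in old + vehicle than in young mice (0.90, adjusted p = 0.0492), a call present in 12 of 41 fits without 1 mouse and lost without mouse 16 (adjusted p = 0.0805). With the muscle score in the model, the 3 calls of the members were the same. The part of neutrophils, tendon, cartilage and blood cells in the members' differences was not tested.

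In the plasmin system, A2m, which encodes the broad protease trap alpha-2-macroglobulin, fell most. It was at 21.98 to 117 CPM in young mice, 0.0836 to 19.4 in old + vehicle and 0.563 to 24.6 in old + AP mice, so that the old + vehicle mice all lay below the young range and 15 of 16 old + AP mice did. The log2 fold change was -3.29 ± 0.55 (adjusted p = 5.46e-05) and -3.65 ± 0.52 (adjusted p = 4.47e-06). Serpinb2, the plasminogen activator inhibitor PAI-2, was lower in old + vehicle than in young mice (-0.79 ± 0.25, adjusted p = 0.0219) and at -0.095 (adjusted p = 0.818) in old + AP against young. Between the old groups it stood at 0.69 ± 0.24 (adjusted p = 0.0864), and it was called there in the fit without old + AP mouse 9. Without old + AP mouse 19, the highest of its group, it was 0.50 between the old groups and -0.29 in old + AP against young mice. Of 16 genes on this list 14 were tested, with 2 lower in old + vehicle and 1 lower in old + AP mice and none higher. Over all genes, 9.06% and 8.58% were called in these 2 comparisons. Between the old groups 0 were called and none passed by edgeR's adjusted p. There 3 had an unadjusted p under 0.05, against 23.9% of all genes. The median log2 fold changes were 0.0062 and -0.043 against young. With the osteoblast score in the model A2m was still called, at -2.88 and -3.09 in the old groups.

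Genes that fold, modify and process collagen, alongside which HSP47 works, were lower in part in old + AP mice. Of 14 genes tested, 1 was lower in old + vehicle and 5 in old + AP mice than in young, and none was higher. Over all genes, 9.06% were called in old + vehicle and 4.85% were called lower in old + AP mice. The median log2 fold changes were -0.27 and -0.50. Plod2, a lysyl hydroxylase that modifies collagen, fell in both old groups, at -1.06 and -1.11 (adjusted p = 0.000223 and 6.37e-05). Both chains of type I collagen fell in old + AP mice, Col1a2 at -1.03 (adjusted p = 0.0108) and Col1a1 at -0.96 (adjusted p = 0.0270). Bmp1, a procollagen protease, was at -0.64 (adjusted p = 0.0381) and P3h1, a prolyl hydroxylase, at -0.59 (adjusted p = 0.0256). The call of Bmp1 was lost in 13 of 41 fits without 1 mouse and that of P3h1 in 1 (young mouse 38). Between the old groups 0 of the 14 were called, and 0 had an unadjusted p under 0.05, against 23.9% of all genes. With the osteoblast score in the model none of the 5 was called in old + AP mice. Col1a1 then stood at 0.11 (adjusted p = 0.737) and Col1a2 at -0.033 (adjusted p = 0.919), Bmp1 at 0.13 and P3h1 at 0.090. Plod2 was at -0.45 (adjusted p = 0.00102), under the size threshold, and in old + vehicle mice at -0.51, still called.

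Among the proteases and receptors linked to C1 inhibitor, 7 of 9 genes were tested. Of these 1 was called, in old + vehicle against young mice, where 9.06% of all genes were. Bdkrb2, the bradykinin B2 receptor, was higher in old + vehicle than in young mice (log2 fold change 0.99 ± 0.34, adjusted p = 0.0316) at a level of only 0.502 against 0.254 CPM. The call was present in 34 of 41 fits that left out 1 mouse, and it was lost without mouse 16 (0.92, adjusted p = 0.0561) and with the osteoblast score in the model (0.98, adjusted p = 0.0718). In old + AP mice it was at 0.68 (adjusted p = 0.135). Of the 5 proteins proposed as PEDF receptors, Pnpla2, a fat-cell lipase, was higher in old + vehicle mice (0.54 ± 0.20, adjusted p = 0.0453). This call was present in 24 of 41 such fits, and it was lost without mouse 16 (0.47, adjusted p = 0.0915) and with the osteoblast score (0.34, adjusted p = 0.248).

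Of 58 other serpin symbols 31 rows were tested, since low expression removed the others. Serpina3n, a secreted serpin that rises in inflammation, was higher in both old groups, at 2.37 to 9.14 CPM in young, 7.41 to 188 in old + vehicle and 4.60 to 43.8 in old + AP mice. The old groups differed from young by 2.38 ± 0.46 (adjusted p = 0.000332) and 1.84 ± 0.44 (adjusted p = 0.00334). Mouse 16 held the highest level, 188 CPM, with the next old + vehicle mouse at 24.3, and without it the first difference was 1.38 and was still called. Between the old groups Serpina3n changed by -0.54 (adjusted p = 0.411), and by 0.46 without mouse 16. Serpinb1b, a leukocyte serpin, was higher in both old groups at 1.27 and 1.10, at under 1 CPM in each mouse, and Serpinb1a, its close relative, was higher in old + AP mice (0.66 ± 0.18, adjusted p = 0.0111). The call of Serpinb1b in old + AP mice was lost without mouse 24.

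The alpha-1-antitrypsin copies Serpina1c, Serpina1d and Serpina1e were higher in old + AP than in young mice at 2.34, 2.65 and 2.78 on the log2 scale. They are near-identical copies, so that the split of reads among them is uncertain, and their means rested on few mice. Serpina1d had a median of 2.07 CPM in old + AP mice and 0.992 in young, while mouse 18 stood at 99.5 CPM and the next at 95.9. With 1 mouse left out, Serpina1c was called in 23 of the 32 fits that tested it, and Serpina1d in 39 of 41, the exceptions being the fits without mouse 18 and without mouse 19. Between the old groups they stood at 2.71, 2.43 and 2.05 (adjusted p = 0.0680, 0.0761 and 0.0821). Each was called there in the fit without old + AP mouse 9, while without mouse 18 Serpina1d was at 1.66 and Serpina1e at 1.32. With all mice, 0 of the 31 serpins were called by edgeR between the old groups, with 12 at an unadjusted p under 0.05, against 23.9% of all genes. In all, 6 of the 31 serpins were higher in old + AP than in young mice, against 3.73% of all genes, and none was lower. That count takes these copies singly, so the 6 are not independent genes. In old + vehicle mice 2 were higher and 1 (Serpinb2) was lower, where 9.06% of all genes were called. With the osteoblast score in the model none of these 6 serpins was called in old + AP mice, where Serpina3n stood at 1.40 (adjusted p = 0.0868) and Serpina1d at 0.074 (adjusted p = 0.973). In old + vehicle mice Serpina3n and Serpinb2 were still called, and Serpinb1b was not (0.87, adjusted p = 0.0945). With that score Serpina3b (-1.04, adjusted p = 0.0106) and Serpini1 (-0.505, adjusted p = 0.00714), not called without it, were called lower there.

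**Figure D4:**
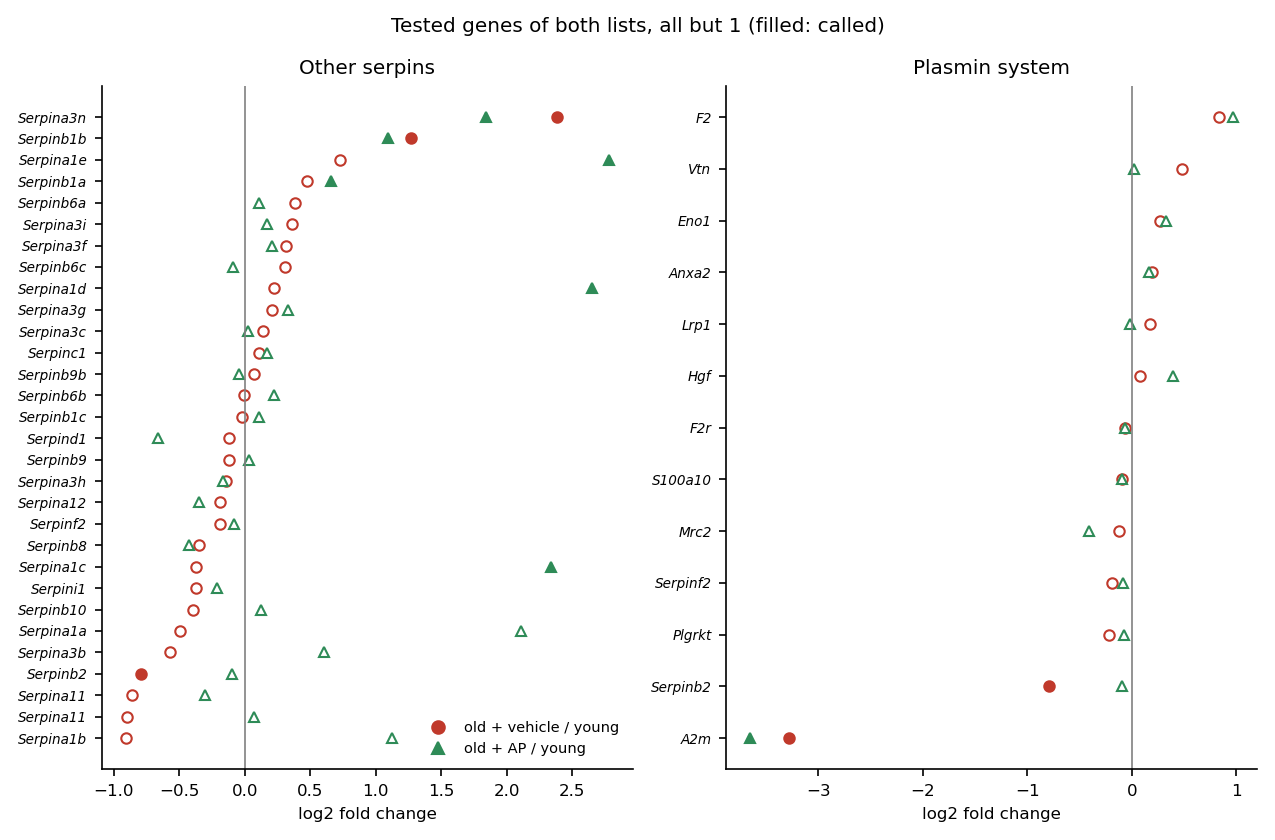
Log2 fold change against young mice (horizontal axes) of the other serpins and the plasmin system genes tested, all but 1 gene of both lists, in old + vehicle (circles) and old + AP mice (triangles), filled where called. Serpina3n is filled in both groups at 2.38 and 1.84, and A2m in both at -3.29 and -3.65.

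Within groups, several members varied together from mouse to mouse. Levels were compared as log2 CPM after the mean of each group was removed, over 41 mice. Such values share a library and its normalization. Of 21 pairs, 12 passed a two-sided permutation test with a Benjamini-Hochberg adjusted p under 0.05 by Pearson's r and 11 by Spearman's rho. The strongest was that of Serpinf1 with Serpinh1 (r = 0.93, rho = 0.93, p = 1e-05, the smallest the resamples can give, adjusted p = 0.000105). It was 0.91 without the 2 mice farthest from the median, and 0.87 within young, 0.91 within old + vehicle and 0.95 within old + AP mice.

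Serpine2 followed both of these genes in old mice more than in young. With Serpinf1 its r was 0.76 (rho = 0.77, adjusted p = 0.000140) over all mice, 0.77 within old + vehicle and 0.82 within old + AP mice, but 0.21 within the 12 young mice. With Serpinh1 it was 0.74 (rho = 0.73, adjusted p = 0.000105), with 0.78 and 0.81 in the old groups and 0.20 in the young. The difference between the groups was not tested. Without the 2 farthest mice, r was 0.72 and 0.73.

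Plat was positively correlated with the 4 serpins over all mice and negatively with Plaur. Its r was 0.61 with Serping1 (rho = 0.64, adjusted p = 0.000210), within groups 0.56 in young, 0.71 in old + vehicle and 0.57 in old + AP mice, and 0.62 without the 2 farthest mice. With Serpinf1 and Serpinh1 its r was 0.55 and 0.57 over all mice, but -0.012 and 0.090 within young mice, against 0.65 and 0.64 in old + vehicle and 0.70 and 0.76 in old + AP mice. With Serpine2 it was 0.41 over all mice, and 0.23, 0.30 and 0.61 within the groups in the same order. With Plaur, r was -0.46 (rho = -0.54, adjusted p = 0.00651), within groups -0.67, -0.25 and -0.50, and -0.49 without the 2 farthest mice. With its fellow activator Plau, r was 0.48 (adjusted p = 0.00663) but rho was 0.27 (adjusted p = 0.171), and r was 0.30 (p = 0.0684) without the 2 farthest mice, so that its passing the test rests on those mice. Within groups its r was 0.52, 0.57 and 0.34 in the same order. Apart from this pair, Plau passed with no member, and Plaur passed with Plat alone.

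**Figure D5:**
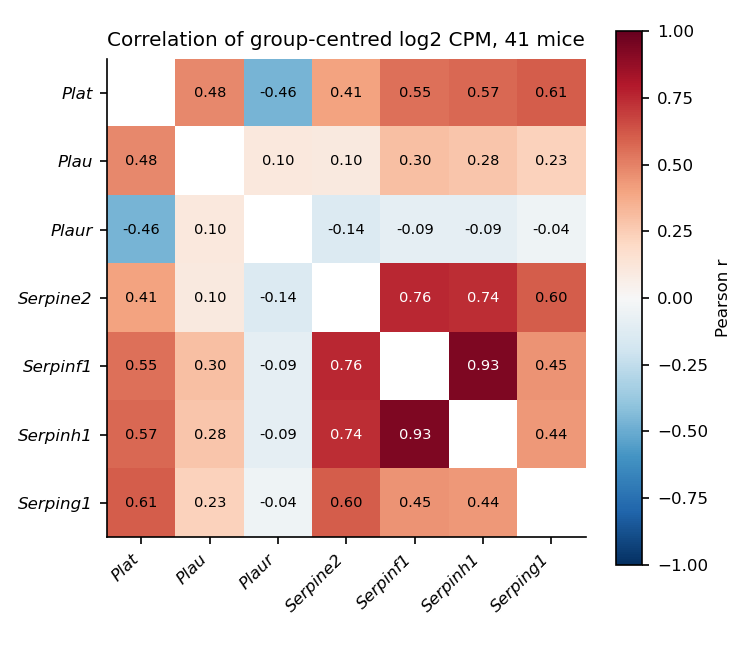
Pearson r between each pair of the 7 genes (axes) over 41 mice, from log2 CPM with the group means removed, with red for positive and blue for negative r. Serpinf1 with Serpinh1 is highest at 0.93, and Plat with Plaur is the lowest at -0.46.

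For each member, the genes whose levels were most like its own were found by the same r among the 15617 tested genes that averaged 1 CPM or more. For Serpinh1 these were Rcn3 (0.98), Fkbp10 (0.97) and Col5a1 (0.97), and for Serpinf1 they were Sparc (0.96), Cdr2l (0.96) and Bmp1 (0.95). Fkbp10 is a collagen chaperone of the endoplasmic reticulum, Col5a1 a type V collagen chain and Sparc encodes the bone matrix protein osteonectin. For Serpine2 they were Tnc (0.93), which encodes the matrix protein tenascin-C, the TGF-beta receptor Tgfbr2 (0.92) and Adcy3 (0.90). For Serping1 they were C1ra (0.88), a complement protease that C1 inhibitor blocks, Cbr3 (0.86) and Mras (0.83).

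The nearest genes of the activators and the receptor were others. For Plat they were Thbs2 (0.87), a thrombospondin, Prrx2 (0.87) and Rnase4 (0.86), and for Plaur they were Slc9a3r1 (0.92), Gna15 (0.92) and Fbxl14 (0.92). For Plau they were Timp1 (0.77), an inhibitor of matrix metalloproteases, Csrp2 (0.76) and the chemokine Ccl7 (0.75), with rho of only 0.59, 0.48 and 0.49. These likenesses are descriptions over 41 mice.

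Cdkn2a, the gene whose p16Ink4a promoter drives the transgene, was set against the members over the 29 old mice in the same way. Its counts are those of the whole gene and do not measure that promoter alone. After adjustment over the 7 members, 3 passed by r, namely Serping1 (r = 0.63, rho = 0.62, permutation adjusted p = 0.00231), Serpine2 (r = 0.50, rho = 0.58, adjusted p = 0.0148) and Serpinh1 (r = 0.50, rho = 0.62, adjusted p = 0.0148). By rho 5 passed, with Serpinf1 (r = 0.38, rho = 0.56) and Plat (r = 0.38, rho = 0.44) added. Without the 2 mice farthest from the median Cdkn2a level, r was 0.58 for Serping1, 0.62 for Serpine2, 0.79 for Serpinh1 and 0.72 for Serpinf1. Within old + vehicle mice r was 0.76, 0.69, 0.80 and 0.76 for these genes in turn, and within old + AP mice 0.50, 0.34, 0.30 and 0.11, where none of the 7 passed. The difference between the old groups was not tested. Old + AP mouse 24 had the highest Cdkn2a level of its group (7.29 CPM, next 3.59). The same mouse had the lowest Serpinf1 and Serpinh1 and the highest Serping1 there, and r within that group without it was not computed. Plau and Plaur had r of 0.075 and 0.15 (adjusted p = 0.720 and 0.533).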

How the data were processed

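Tibial RNA of 41 mice was sequenced by the authors on a HiSeq2000 and mapped to GRCm38 (mm10). Per the labels, TopHat2 2.0.6 and HTSeq were used. The annotation release and strand setting were not given in the sources used here. The authors deposited raw counts per gene and mouse, together with coordinates and a length per gene (another deposited value, used only for levels per kilobase). Groups came from the sample labels.

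Counts were analysed in R 4.3.3 with edgeR 4.0.16, with TMM normalization, filterByExpr, and the quasi-likelihood test in 1 model of the 3 groups. Benjamini-Hochberg adjustment ran over 19292 genes. Calls needed an adjusted p under 0.05 together with a change larger than 0.5 in either direction (log2). SEs were derived from the test statistic. DESeq2 1.42.0 was the alternative test. CPM used effective library sizes, and log2 CPM a prior count of 2. Correlations used 100000 permutations within groups. A marker score was the mean z of log2 CPM. The tests were checked on simulated counts and values.

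Total counts were 37028959 to 75942717 per mouse (median 47774880). Named genes were the members, Cdkn2a, every called gene of the lists, and the 3 nearest genes of each member. Where over 10 genes of a list were called, the 5 largest changes each way were to be named. A gene that the rule also named is counted in its lists but not reported here. Members and lists were chosen with earlier results of these data known. Alternatives were another normalization, no filter, no size threshold, 2 groups only, a robust fit, marker scores as covariates, and each mouse left out.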

Additional observations from a re-analysis of the deposited data

How the results depend on the processing

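The 3 members called in old + AP against young mice were 3 under DESeq2, under its size factors in edgeR, without a filter, with 2 groups only and with the muscle score, and 2 with the neutrophil score, 4 without the size threshold. With the osteoblast score none of the 3 was called, and the count of 1 was Serpine2, in the opposite direction. With each mouse left out, the members called in old + vehicle against young mice ranged from 0 to 1. Genes of the lists called in old + vehicle against young mice were 7, and 14 with the neutrophil score and 11 without the size threshold. Under AP they were 0, and 2 by DESeq2, 1 with the neutrophil score and 0 to 7 with each mouse left out, where the 7 came without old + AP mouse 9. In old + AP against young mice they were 12, and 1 with the osteoblast score (A2m). With that score, the log2 fold changes of Serpinf1 and Serpinh1 turned to 0.16 and 0.11 in old + vehicle mice, Serpinf1 turned to 0.0077 in old + AP mice, and Serpine2 turned to 0.044 under AP. Plau in old + AP against young mice, -0.0065, was 2.26e-05 by DESeq2, 0.094 with the neutrophil score, 0.11 with the osteoblast score and -0.081 to 0.031 with each mouse left out. Plaur there was -0.082 with the neutrophil score, and Serpine2 was -0.030 to 0.11 with each mouse left out. The 12 correlated pairs were 1 within young, 9 within old + vehicle and 6 within old + AP mice, groups of fewer mice. The 3 members correlated with Cdkn2a were 5 without the 2 farthest mice, 4 within old + vehicle and 0 within old + AP mice. The cause of these changes was otherwise not tested. No paired analysis was possible because each mouse number belongs to a single mouse. Counting error is small at this depth for the members, with 283 or more counts in each mouse, and the limits are the number of mice and the mixed cells of whole bone.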
